A study of Mus musculus with 4 samples.

Results

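The cells described here are the collagen-rich mesenchymal cells of the libraries labelled E18.5 lung. Mesenchyme is the connective tissue of an organ: its cells lay down collagens and other matrix, carry organ-specific transcription factors, and send growth factors to the epithelium and blood vessels beside them. A cell was taken when it had at least 500 genes, at least 8 unique molecular identifiers (UMIs, each 1 captured transcript) summed over Col3a1, Col1a1, Col1a2 and Dcn, a UMI in at least 2 of these genes, and no UMI of the endothelial gene Cdh5 or the leukocyte gene Ptprc. The cells were thus chosen by their raw UMI counts of those 6 genes. This gate held 177 of the 33551 E18.5 cells, 79 in the library of the null mother and 98 in that of the heterozygous mother. They were 0.478% of the cells with the null mother (exact 95% interval 0.379 to 0.596) and 0.575% with the heterozygous mother (0.467 to 0.701), intervals that overlap and cover counting error only.

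Droplet single-cell RNA sequencing was run on digested fetal mouse tissue. All fetuses were labelled Cyp27a1-/-, lacking the mitochondrial hydroxylase that opens a route from cholesterol to bile acids and oxysterols, and what differed was the mother. Each age has 1 library with a Cyp27a1-/- (null) mother and 1 with a Cyp27a1+/- (heterozygous) mother, at E18.5 and at E14.5, so the comparison asks what the maternal genotype does to fetuses that are all null. The labels do not say how many fetuses or litters stand behind a library, and for the heterozygous mother the E18.5 title is tagged WT although the genotype label reads Cyp27a1-/-, which was used. With 1 library per group nothing here was tested, no difference has a replicate check, and fetuses, sex, dissection and library cannot be told apart from the mother. Among the gated cells, 26 were male, 21 female and 3 both by their Y-linked and Xist UMIs with the null mother, against 49 male and 0 female with the heterozygous mother.

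The E18.5 libraries held 118054232 UMIs with the null mother and 97894048 with the heterozygous mother, of which the gated cells gave 531136 and 573254. A gated cell had a median of 4600 UMIs (936 to 30378) with the null mother and 4763.5 (1029 to 38215) with the heterozygous mother, and the gate genes a median of 31 and 38 UMIs. UMIs were summed over the gated cells of a library and given as CPM, counts scaled to a common total, in which 1 UMI is worth 1.88 CPM with the null mother and 1.74 CPM with the heterozygous mother. Such sums move with the mix of cell types and with the depth of single cells, which cannot be told apart from a difference in RNA within a cell unless a cell group is named. The libraries shared 164 barcodes, none of them a gated cell, and Scrublet called 5 and 2 of the gated cells doublets, which were kept.

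The targeted gene itself, Cyp27a1 (chromosome 1, 74713574 to 74737892, mm10), had 22 UMIs with the null mother and 27 with the heterozygous mother, or 41.4 and 47.1 CPM. It was found in 20.3% and 20.4% of the gated E18.5 cells, and at 17.1 and 15.9 CPM in E14.5 cells of the same gate. The tags may lie outside the deleted part of the gene, so these values check neither the fetal nor the maternal genotype.

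The gate stood well apart from the bulk of the libraries. Of the cells with at least 500 genes, 14060 of 14265 with the null mother and 12188 of 12445 with the heterozygous mother had no UMI of the 4 gate genes, and 3 and 9 cells fell at 4 to 7 UMIs. Above the threshold, 9 and 12 cells were left out for Ptprc and 1 and 1 for Cdh5. The 5 gated cells with 8 to 10 gate UMIs had a median of 1733 UMIs and 2916 CPM of the matrix glycoprotein gene Sparc. The 7 ungated cells with 5 to 7 gate UMIs had a median of 885 UMIs and 784 CPM of Sparc, with 1 UMI of the mesothelial gene Upk3b. The cells just outside were thus the shallower ones. Col3a1, Col1a1, Col1a2 and Dcn are not named as results below, and where a list holds them this is said.

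The mesenchyme label held for the gated cells as a whole, with no support drawn from the gate genes. It was less apt for some groups described below. Of the cells, 42 were mesothelium-like and 6 held a median of 19% neutrophil UMIs. Outside the gate genes, 271 of 1439 measured genes (18.8%) were at least 4-fold higher in the gated cells than in the other cells of their library in both libraries. Measured here means at least 50 UMIs in both libraries, and between the mothers below at least 50 UMIs in the library of higher CPM. Col14a1, a collagen that sits on collagen fibrils (chromosome 15, 55307750 to 55520803), led with 1278 and 1253 CPM in the gated cells of the null and the heterozygous mother, against 0.70 and 1.5 CPM in the other cells. It had a UMI in 96.2% and 87.8% of the gated cells. The same share was 0.266% and 0.283% in neutrophils (at least 50 UMIs of S100a8 and S100a9, median depth 7525 and 5265 UMIs), which should lack it.

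The next genes were the membrane protein gene Itm2a, at 1395 and 1589 CPM in the gated cells against 7.40 and 4.48 CPM in the rest, and the imprinted zinc finger gene Plagl1, at 1073 and 940 CPM against 2.78 and 3.61 CPM. Sparc followed with 7994 and 4698 CPM in the gated cells, against 58.7 and 57.5 CPM. The remaining leaders were mostly matrix genes and their helpers. They were the collagen genes Col6a1 and Col5a2, the small leucine-rich proteoglycan genes Lum and Bgn, the microfibril gene Mfap2, the collagen chaperone gene Serpinh1, the growth factor gene Ptn, the IGF binding protein gene Igfbp5, the small heat shock gene Hspb1, the imprinted gene Dlk1 and the mesothelial Upk3b. Endothelial markers were near background in the gated cells: the endothelium list summed to 81.0 and 83.7 CPM, against 5353 and 5999 CPM in the endothelial cells of these libraries, with 1 and 0 UMIs of Pecam1. Cdh5 of that list was fixed at 0 by the gate.

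The lung label was not borne out by Tbx4, Tbx5 and Fgf10 in these cells. Tbx4 and Tbx5 are the paired T-box transcription factors of lung mesenchyme. Tbx4 (chromosome 11, 85886422 to 85916097) had 0 UMIs with the null mother and 1 with the heterozygous mother, against 103 and 81.2 CPM in E14.5 cells of the same gate. Tbx5 had 2 and 0 UMIs, against 132 and 106 CPM at E14.5. Fgf10, the growth factor of lung branching, had 3.8 and 0 CPM at E18.5 and 31.5 and 26.7 CPM at E14.5. At these sums a count of 0 allows up to 5.65 CPM with the null mother and 5.23 CPM with the heterozygous mother, under every one of those E14.5 levels.

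Regional genes shared with other organs were lower but present. Meox2, a mesodermal homeobox gene, had 1.9 and 5.2 CPM against 93.5 and 79.8 CPM at E14.5, and Hoxb5, a homeobox gene of the foregut level, had 1.9 and 3.5 CPM against 123 and 137 CPM. Wnt2, a Wnt ligand, had 41.4 and 29.7 CPM at E18.5 and 186 and 235 CPM at E14.5. The forkhead gene Foxf1, of foregut-derived mesenchyme, was closest of these between ages, at 64.0 and 52.3 CPM against 111 and 115 CPM. Other genes of the lung mesenchyme list were present at E18.5, Hhip with 85 and 77 UMIs and Tcf21 with 30 and 26. Of 4 measured genes of that list, 2 were at least 2-fold lower with both mothers and 0 higher, beside 8.07% of all genes lower. The list summed to 348 and 293 CPM, against 921 and 840 CPM at E14.5. Lung epithelial markers were nearly absent as well, with 3 and 10 UMIs for the whole list, 6 of its 8 genes at 0 in both libraries, and Nkx2-1 at 0.

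Some genes known from liver mesenchyme were found at E18.5. Hepatic stellate cells store vitamin A and line the liver sinusoids, and their marker Reln (chromosome 5, 21884454 to 22344702), a secreted glycoprotein, had 250 and 265 CPM, against 0.2 and 0.3 CPM at E14.5. Lrat (chromosome 3, 82892579 to 82903973), which makes retinyl esters, had 64 and 75 CPM against 0.9 and 1.4 CPM. Lhx2, a homeobox gene of stellate cells, had 49.0 and 73.3 CPM against 0.2 and 0.1 CPM. In both E18.5 libraries the levels of Reln, Lrat and Lhx2 were far above those of both E14.5 libraries. The stellate list of 16 genes moved less as a whole. Of 7 measured, 4 were at least 2-fold higher with both mothers and 0 lower, beside 11.0% of all genes higher. Its sum was 2805 and 3121 CPM, against 1316 and 1565 CPM. Of its other genes, Ptn had 665 and 973 CPM against 302 and 527 CPM, and Rgs5 had 1 and 13 UMIs and Ngfr 1 and 8 at E18.5.

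The secreted factors followed the same order. The lectin gene Colec11 had 284 and 270 CPM at E18.5 and 3.7 and 3.2 CPM at E14.5, and the hepatocyte growth factor gene Hgf had 58.4 and 83.7 CPM against 1.3 and 1.5 CPM. Gdf2 and Bmp10, which encode related ligands of an endothelial BMP receptor, had 119 and 134 CPM and 33.9 and 33.1 CPM at E18.5. At E14.5, Gdf2 had 1 and 0 UMIs and Bmp10 none. Reln had a UMI in 58.2% and 49.0% of the gated cells, against 1.14% and 0.708% of neutrophils, and Gdf2 in 40.5% and 30.6% against 0.145% and 0.118%. Hand2 and Gata4, transcription factors of several mesenchymes including that of the liver, had 117 and 122 CPM and 49.0 and 41.9 CPM, against 1.7 and 3.3 CPM and 2.0 and 4.5 CPM at E14.5. Osteoblast markers summed to 3 and 1 UMIs, with 6 of the 8 genes at 0 in both libraries. Age and tissue content cannot be told apart in the comparison with E14.5.

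**Figure D1:**
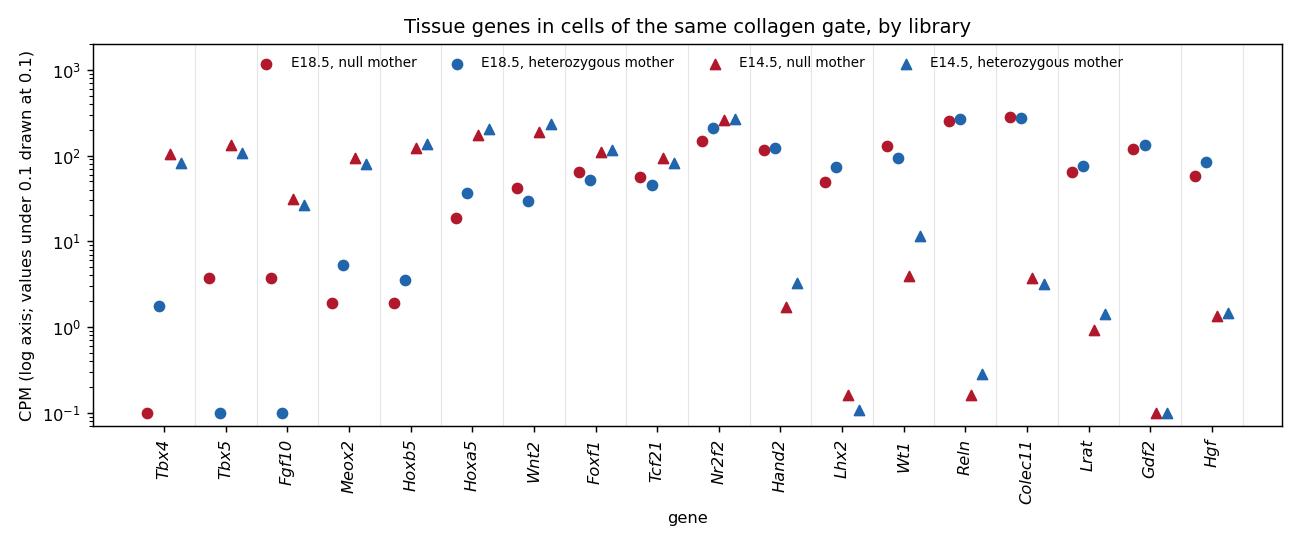
CPM of 18 tissue genes (log axis) in gated cells of each library, with E18.5 as circles and E14.5 as triangles, the null mother in red and the heterozygous mother in blue. Tbx4, Tbx5, Fgf10, Meox2 and Hoxb5 lie near or under 5 CPM at E18.5, while Lhx2, Reln, Colec11, Lrat, Gdf2 and Hgf lie at or above 49.0 CPM at E18.5 and under 4 CPM at E14.5.

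Across all genes, 215 of 1957 (11.0%) were at least 2-fold higher at E18.5 than at E14.5 with both mothers and 158 (8.07%) at least 2-fold lower. Matrix genes outside the gate leaned higher. Without the 3 collagen genes of the gate, 4 of 9 measured collagen genes were past the fold and 1 below it, and the list summed to 4189 and 4405 CPM at E18.5, against 1970 and 1554 CPM at E14.5. Matrix glycoproteins without Dcn had 8 of 15 past the fold and 2 below it. A fixed UMI threshold asks for more matrix per UMI in a shallow cell, and the gated E18.5 cells were shallower than those of E14.5, with medians of 4600 and 4763.5 UMIs against 14058.5 and 14802. The part of this in the difference was not tested. All 6 measured mesothelial genes were past it, with a list sum of 2274 and 1551 CPM against 79.5 and 173 CPM.

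Imprinted growth genes had 5 of 11 past the fold and 0 below, with a sum of 20552 and 15604 CPM at E18.5 against 6697 and 7298 CPM at E14.5. Dlk1, a Notch-like membrane protein gene of fetal growth, was among them at 4381 and 2784 CPM, against 476 and 616 CPM. Immediate early genes, which encode transcription factors and phosphatases induced within minutes of a stimulus, had 5 of 8 past the fold and 0 below. Of the genes farthest from E14.5, Crip1, a LIM protein gene, had 2658 and 1195 CPM against 46.6 and 27.6 CPM, and the metallothionein gene Mt1 had 599 and 441 CPM against 4.8 and 4.7 CPM. In the other E18.5 cells Mt1 stood at 2651 and 1632 CPM, above its level in the gated cells. The other 6 were neutrophil genes (S100a8, S100a9, Ngp, Camp, Stfa1 and BC100530), a cell type that is abundant in these libraries.

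Cell division and smooth muscle genes were lower. Of 15 measured G2 and M phase genes 9 were past the fold downwards and 0 upwards, with a sum of 1578 and 1971 CPM at E18.5 against 3906 and 4169 CPM at E14.5. Smooth muscle markers had 4 of 7 below and 0 above, and Myh11, the smooth muscle myosin heavy chain gene, had 5.6 and 7.0 CPM against 171 and 140 CPM. The alcohol dehydrogenase gene Adh1 had 18.8 and 3.5 CPM against 359 and 173 CPM. The glycogenin gene Gyg had 30.1 and 34.9 CPM against 586 and 488 CPM, and the T-box gene Tbx2 had 20.7 and 24.4 CPM against 400 and 327 CPM. Col13a1, a transmembrane collagen gene, had 7.5 and 5.2 CPM against 152 and 136 CPM. The 23 measured ribosomal protein genes and 10 measured genes of the unfolded protein response had none past the fold in either direction.

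The gated cells fell into 5 clusters when both libraries were clustered together. The largest, cluster 0, held 37 cells with the null mother and 32 with the heterozygous mother and was shallow, with a median of 3079 and 3130 UMIs. Reln stood at 863 CPM there with a UMI in 92.8% of its cells, and Cxcl12, the chemokine that holds blood progenitors in their niche, at 1407 CPM. Lrat, Lhx2 and Hgf stood at 238, 220 and 252 CPM. The cluster met the marker rule for hepatic stellate cells, with 10 of 16 markers, but it was led by Afp, Apoa2, Ttr, Alb and Apoa1, which are hepatocyte genes, so it takes no cell type name here. Clustered without the 18 cells that held over 2% of hepatocyte, haemoglobin or neutrophil UMIs, a choice made after the clusters were seen, 66 of its cells fell in a cluster of 69 cells led by Plvap, Lhx2, Hgf, Sod3 and Masp1. In that cluster 10 of 16 stellate markers passed, but 6 of 10 hepatocyte, 3 smooth muscle and 3 neutrophil markers passed as well. It had 4 stellate markers and 0 hepatocyte genes among its top 10 and was hepatic stellate-like by the same rule.

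Cluster 1 was mesothelium-like, with 10 of 10 markers of the epithelial sheet that covers organs. It held 19 cells with the null mother and 23 with the heterozygous mother, and the cells of the null mother were deeper, with a median of 11767 UMIs against 5923. It gave 45.4% of the gated UMIs with the null mother and 29.7% with the heterozygous mother. Upk3b (chromosome 5, 136038496 to 136046487), a uroplakin gene of mesothelium, stood at 1354 CPM with a UMI in all 42 cells, the surface protein gene Msln at 897 CPM and the keratin gene Krt19 at 916 CPM. Rspo1, which encodes an amplifier of Wnt signals, stood at 571 CPM and had no UMI in clusters 0, 2 and 3. Its other leading genes included Myl7 and Tnnt2, known from heart muscle, but the heart genes Myh6, Nppa and Actc1 had no UMI in any gated cell.

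Cluster 2 held 8 cells with the null mother and 24 with the heterozygous mother and was led by the microfibril gene Mfap5 (chromosome 6, 122505845 to 122529290), at 1119 CPM, with Dpysl3, Dpt, Cthrc1, Aspn, Col5a3 and Clec3b. These are fibroblast matrix genes for the most part. Dermatopontin (Dpt) stood at 388 CPM, the homeobox gene Prrx1 at 191 CPM, the large proteoglycan gene Vcan at 564 CPM and Ptn at 2669 CPM. The cluster had 7 of 10 portal fibroblast markers, 4 stellate and 3 gut mesenchyme markers and is called by Mfap5 here, since few of its leading genes were on the portal list.

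Cluster 3 held 13 and 15 cells that had Reln (347 CPM), Lrat (103 CPM) and Colec11 (362 CPM) together with the proliferation genes Mki67 (635 CPM) and Top2a (542 CPM). Mki67 had a UMI in 78.6% of its cells, against 36.0 CPM over the cells of cluster 0. Erythroid genes led it, and 7 of its cells held over 2% haemoglobin-list UMIs. Cluster 4 held 2 and 4 cells with a median of 19% neutrophil UMIs and is not described further.

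The 3 programmes rarely met in 1 cell. With at least 2 UMIs of a short marker set as the bar, 65 of the 69 cells of cluster 0 passed the stellate set and 0 the mesothelial set. In cluster 1, 42 of 42 passed the mesothelial set and 7 the stellate set. In cluster 2, 25 of 32 passed the matrix set, 2 the stellate set and 2 the mesothelial set, and in cluster 3, 24 of 28 passed the stellate set. These sets hold genes that the clustering used, so the counts describe the clusters. The numbers of cells per cluster in the 2 libraries are not compared, because genes of other cells that lead clusters 0, 3 and 4 differed between the libraries.

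**Figure D2:**
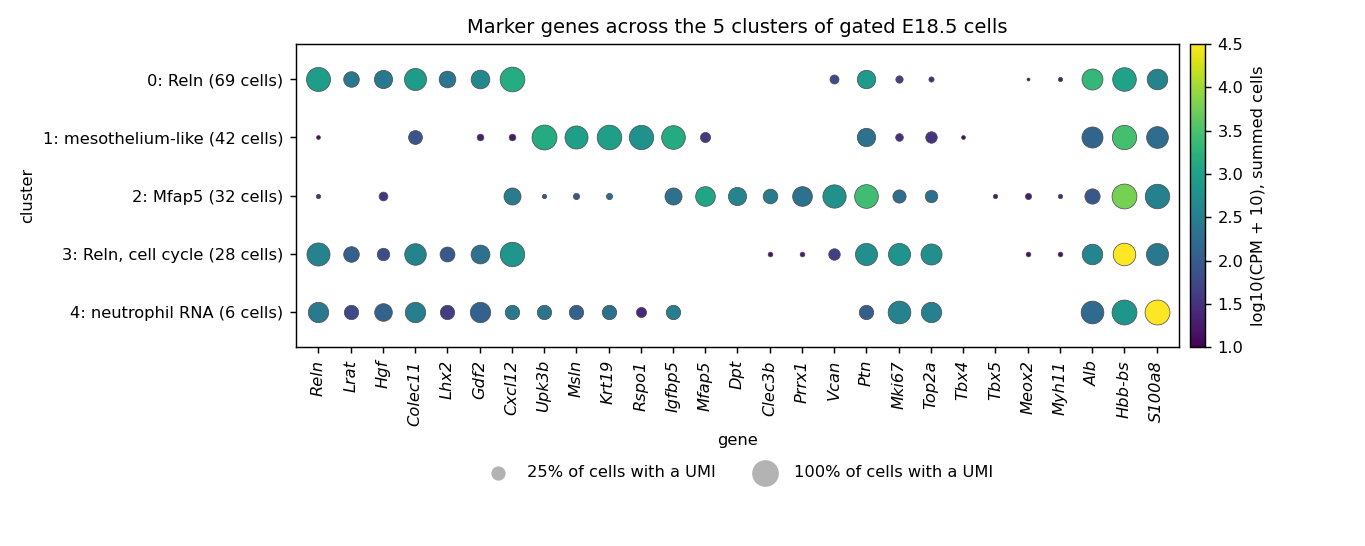
Marker genes (columns) in the 5 clusters of gated E18.5 cells (rows), with dot area for the share of cells with a UMI and colour for log10(CPM + 10) of the summed cells. Reln to Cxcl12 fill clusters 0 and 3, Upk3b to Igfbp5 cluster 1, and Mfap5 to Ptn cluster 2, while Alb, Hbb-bs and S100a8 appear in every cluster.

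RNA of other cells was found in most of these cells and differed between the libraries. Hepatocyte genes made up a median of 0.135% of a gated cell's UMIs with the null mother and 0.0412% with the heterozygous mother, haemoglobin and other erythroid genes 0.0672% and 0.222%, and neutrophil genes 0.113% and 0.0792%. Neutrophils, which should lack hepatocyte transcripts, showed the same order, with the hepatocyte list at 10085 CPM in neutrophils with the null mother and 2109 CPM with the heterozygous mother. On top of this, 9 cells in each library held over 2% of such UMIs, up to 14.1% hepatocyte UMIs in 1 cell with the null mother and up to 59.4% erythroid UMIs in 1 cell with the heterozygous mother. The 5 highest cells held 75.1% and 29.2% of all hepatocyte UMIs, 95.4% and 90.7% of all erythroid UMIs and 87.0% and 95.9% of all neutrophil UMIs.

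**Figure D3:**
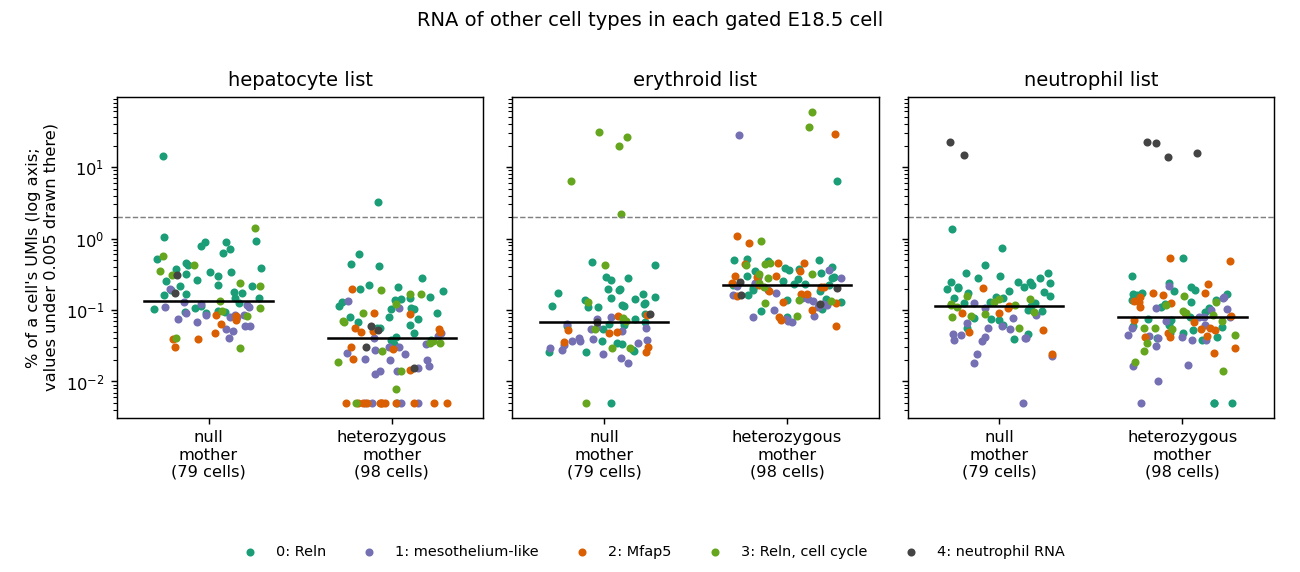
Share of each gated cell's UMIs (%, log axis) on the hepatocyte, erythroid and neutrophil lists, with 79 cells of the null mother left of 98 cells of the heterozygous mother in each panel. Points are cells coloured by cluster, black lines are medians (0.135% against 0.0412%, 0.0672% against 0.222%, 0.113% against 0.0792%), and the dashed line is at 2%.

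Between the mothers, 1904 genes were measured in the gated cells. With the null mother 973 of them were higher and 931 lower, and the median log2 ratio was 0.02. At least 1.5-fold higher were 206 (10.8%) and at least 1.5-fold lower 141 (7.41%), the shares that stand beside the pooled list counts below. Ratios are null over heterozygous mother on CPM, intervals are exact 95% intervals for counting error, and list medians are of log2 ratios with 10 CPM added on both sides.

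**Figure D4:**
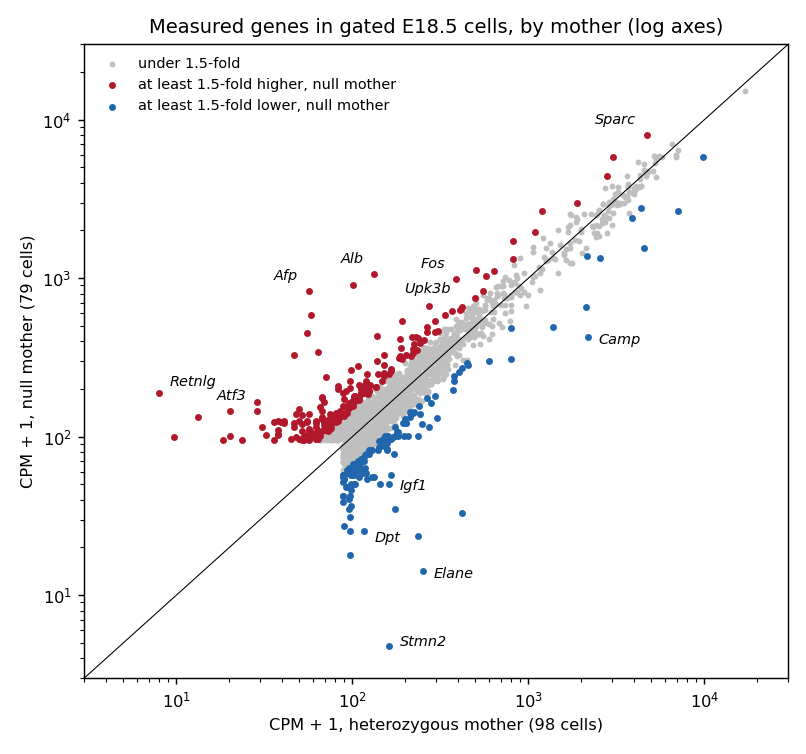
CPM + 1 of each of 1904 measured genes in the gated cells of the null mother (vertical) against those of the heterozygous mother (horizontal), both on log axes. Red marks the 206 genes at least 1.5-fold higher and blue the 141 at least 1.5-fold lower with the null mother, and Afp, Alb and Retnlg lie farthest above the diagonal, Stmn2 and Elane farthest below it.

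The genes farthest apart were mostly those of other cells. Of the 10 highest with the null mother, 9 were hepatocyte secretory genes. Afp, the fetal serum albumin relative, had 832 CPM with the null mother and 55.8 CPM with the heterozygous mother, 14.9-fold (10.4 to 22.1), but 73.1% of its UMIs with the null mother came from 1 cell. Alb had 1056 and 133 CPM, 7.97-fold (6.26 to 10.3), with 63.8% from 1 cell. Apoa2, Ttr, Trf, Apoa1, Apoc4, Fgb and Ahsg made up the rest, and all 9 measured genes of the hepatocyte list were past the fold, with a median of 2.85 that came to 1.32 without the 18 cells named above. The tenth gene, Retnlg, of neutrophils, had 100 and 4 UMIs, 95% of those with the null mother in 1 cell.

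Among the 10 lowest with the null mother, the neutrophil granule genes Elane, Prtn3, Chil3, Camp, Fcnb, Olfm4 and Stfa1 sat likewise in few cells, with 53.1% of the Elane UMIs of the heterozygous mother in 1 cell. The median of the 9 measured neutrophil genes was -1.41 with all cells and 0.88 in cluster 0, so its sign turned with the cells included. Over the 4 neutrophil genes measured within cluster 0 it was 0.96. Stmn2, a microtubule regulator of neurons, had 2 UMIs with the null mother and 92 with the heterozygous mother, spread over 9 cells. The chromatin remodelling gene Baz1a had 13 and 55 UMIs. Dpt, all of whose UMIs were in cluster 2, had 24.5 CPM with the null mother and 115 CPM with the heterozygous mother, a ratio of 0.21 (0.11 to 0.39).

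Immediate early genes formed the clearest group within the mesenchymal cells. With the null mother all 11 measured genes of the list were higher, 8 of them past the fold, beside 10.8% of all measured genes. The median was 0.80 and the list sum 4481 CPM against 2411 CPM, 1.86-fold (1.74 to 1.99). Fos (chromosome 12, 85473890 to 85477273), a subunit of the AP-1 transcription factor, had 990 CPM with the null mother and 389 CPM with the heterozygous mother, 2.55-fold (2.17 to 2.99). The other genes farthest out were Ier2 at 2.60-fold, Dusp1, a phosphatase that ends stress kinase signals, at 3.19-fold (65 and 22 UMIs), and Atf3, a stress-induced transcription factor, at 5.19-fold (3.00 to 9.54), with 41.6% of its UMIs of the null mother in 1 cell. Jun, Junb and Jund, the partners of Fos, were at 1.52-, 2.36- and 1.75-fold.

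The list leaned the same way within clusters 0 and 1. In cluster 0, 5 of 5 measured genes of the list were higher with the null mother and 4 past the fold, with a median of 0.95, beside 13.0% of all 987 genes measured there at least 1.5-fold higher. Those 5 had at least 20 UMIs there in the library of higher CPM. Over the 11 genes measured in the pool, the median in cluster 0 was 0.44. In cluster 1, 11 of 12 were higher and 7 past the fold, with a median of 0.78, beside 15.4% of 1824. Cluster 2 had 4 of 5 higher with a median of 0.47, but 1 past the fold upwards and 1 downwards, beside 23.8% of 896 genes upwards, so its share past the fold was near that of all genes. Cluster 3 had 3 of 3 higher and 1 past the fold, beside 15.3% of 898. Fos had 363 CPM with the null mother and 183 CPM with the heterozygous mother in cluster 0, 1713 and 892 CPM in cluster 1, and 399 and 285 CPM in cluster 2, where its ratio interval (0.84 to 2.33) included 1. These genes also respond to tissue digestion, whose part in the difference was not tested. Without the gated cells of over 16318 UMIs, the top 5% by depth, the list median was 0.39. In E14.5 cells of the same gate it was -0.02, with 8 of 16 measured genes higher with the null mother. In the other E18.5 cells the list summed to 1950 CPM with the null mother and 1978 CPM with the heterozygous mother.

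Mesothelial genes were higher with the null mother in the sum of all gated cells, but not past the fold in sum within the mesothelium-like cluster. With the null mother all 6 measured genes were higher, 4 of them past the fold, beside 10.8% of all measured genes. The median was 0.61 and the list sum 2274 CPM against 1551 CPM. Upk3b had 655 and 417 CPM, 1.57-fold, Msln 1.73-fold, Krt19 1.51-fold and another uroplakin gene, Upk1b, 1.89-fold. Within cluster 1 the list summed to 4604 CPM with the null mother and 4806 CPM with the heterozygous mother, a ratio of 0.96 (0.87 to 1.05), and 3 of 9 measured genes were higher and 2 past the fold downwards, with a median of -0.12, beside 8.22% of all genes measured there at least 1.5-fold lower. Upk3b had 1373 and 1326 CPM there, and with every cell thinned to 2000 UMIs before the gate its pooled ratio had a median of 0.97 over 20 random draws (0.75 to 1.33). The share of gated UMIs that came from these cells, 45.4% against 29.7%, moved with the pooled values.

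The collagens themselves had no common direction between the mothers, while the enzymes and chaperones that process them leaned higher with the null mother. Of 12 measured collagen genes 7 were higher and 5 lower, 0 and 3 past the fold, with a median of 0.05, or 0.49 with only male cells. Without the 3 gate genes it was 4 and 5, with a median of -0.11. The 3 were the basement membrane collagens Col4a1 (282 CPM with the null mother and 454 CPM with the heterozygous mother, ratio 0.62, 0.51 to 0.76) and Col4a2 (0.59), and the fibril-nucleating Col5a1 (0.64). Col14a1 had 679 and 718 UMIs, a ratio of 1.02.

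Of 12 measured collagen processing genes, 11 were higher and 5 past the fold with the null mother, beside 10.8% of all measured genes. Their median was 0.50, with median counting bounds of -0.02 and 0.97. P4ha2, a catalytic subunit of collagen prolyl hydroxylase (chromosome 11, 54100095 to 54131665), had 137 CPM with the null mother and 47.1 CPM with the heterozygous mother, 2.92-fold (1.85 to 4.72). The crosslinking enzyme gene Lox had 198 and 112 CPM, 1.77-fold (1.29 to 2.46), and Pcolce, whose product speeds the trimming of procollagen, was 1.62-fold higher. Serpinh1, the collagen chaperone, had 1337 and 897 CPM, at the edge of the fold with 1.49. By cluster, the list median was 0.05 in cluster 0, with 0 of 4 measured genes past the fold, 0.37 in cluster 1, 0.78 in cluster 2 and 0.68 in cluster 3.

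Other matrix genes went both ways. Among matrix glycoproteins and proteoglycans without Dcn, 5 of 17 measured were past the fold upwards and 3 downwards. Sparc was 1.70-fold higher with the null mother (1.62 to 1.79), fibronectin (Fn1) 1.80-fold with 223 and 134 UMIs, and tenascin C (Tnc) 2.30-fold with 66 and 31 UMIs. Lower were Sparcl1, a relative of Sparc, with 53 and 134 UMIs and a ratio of 0.43, Vcan with 0.53, and Fbln1, an elastic fibre protein gene, with 0.59. The fibrillin gene Fbn2, with 56 and 104 UMIs, had a ratio of 0.58, while Fbln5, needed for elastic fibre assembly, had 1.74. Among matrix proteases and their inhibitors, the inhibitor gene Timp1 was 2.46-fold higher with 73 and 32 UMIs, and Mmp23 1.77-fold.

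Growth factors that reach hepatocytes and other parenchyma leaned lower with the null mother. Of 6 measured genes 5 were lower, with a median of -0.38. Past the fold were 2 downwards and 1 upwards, beside 7.41% and 10.8% of all measured genes. Igf1 (chromosome 10, 87858265 to 87937042), an insulin-like growth factor gene, had 49.0 CPM with the null mother and 160 CPM with the heterozygous mother, a ratio of 0.31 (0.19 to 0.48). It was lower within both cell groups that carried it, with 14 and 39 UMIs in cluster 1 and 8 and 49 UMIs in cluster 2, while cluster 0 had 2 and 2 UMIs. Mdk, a heparin-binding growth factor gene, had a ratio of 0.65 (0.53 to 0.80), and it was lower in cluster 0 (186 and 477 CPM) and in cluster 2 (361 and 792 CPM). Its relative Ptn had a pooled ratio of 0.68 (0.60 to 0.78) but opposite values by cluster, 1.38 in cluster 0 and 0.51 in cluster 2. With only male cells, Ptn was at 1.58, Mdk at 0.96 and Igf1 at 0.33, and the list median was 0.30. In cluster 3 the list sum was higher, at a ratio of 1.48 (1.16 to 1.89). Rspo1, the gene past the fold upwards at 1.88, sat in cluster 1.

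Stellate genes had no common direction in the pool, and the UMI sums of the clusters that carried them went opposite ways. Of 8 measured markers 4 were higher and 4 lower, with a median of -0.01. Reln had 133 and 152 UMIs with a ratio of 0.94, Colec11 a ratio of 1.05, Cxcl12 0.91 and Gdf2 0.88. Within cluster 0, 1 of 10 measured stellate markers was higher with the null mother and 5 were past the fold downwards, with a median of -0.52, beside 13.8% of all genes measured there at least 1.5-fold lower. Lhx2 had 137 CPM with the null mother and 325 CPM with the heterozygous mother in that cluster (ratio 0.42, 0.22 to 0.78), Hgf 169 and 355 CPM (0.48, 0.26 to 0.84), and Reln 758 and 995 CPM (0.76, 0.57 to 1.02). In cluster 3, the dividing cells with Reln and Lrat, 4 of 4 measured stellate markers were higher. Of these, 2 were past the fold, beside 15.3% of all genes there, and the list sum had a ratio of 1.64 (1.4 to 1.93). Deep cells weighed on this sum. With the heterozygous mother, cells of 38215, 21521 and 16825 UMIs, of 129458 in cluster 3, held 0.055%, 0.060% and 0.125% stellate UMIs. The median cell of the cluster held 0.446%. All ratios of cluster 3 given here include these cells. Cluster 2 had 1 of 5 higher, with a median of -0.97. Its deep cells were those of the null mother, at 16625, 15202 and 14300 of 77598 UMIs. They held 0.138%, 0.210% and 0.259% stellate UMIs, and the median cell of cluster 2 held 0.414%. All comparisons of the mothers in cluster 2 include these cells. Collagens, the gate genes among them, parted likewise, with 0 of 11 higher in cluster 0 (median -0.28), 7 of 9 in cluster 3 (median 0.71) and 8 of 13 in cluster 2 (median 0.25). Erythroid genes gave 84607 CPM of cluster 3 with the null mother and 51886 CPM with the heterozygous mother, and 29.1% of all genes measured there were at least 1.5-fold lower. In cluster 0, 1 cell of the null mother gave 10934 of 123954 UMIs and held 14.1% hepatocyte and 0.110% stellate UMIs. The median cell of cluster 0 held 0.668% stellate UMIs. The hepatocyte UMIs that the null mother's cells carried were part of the same CPM totals, and their part in these ratios was not tested.

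Transcription factors of mesenchyme were lower in clusters 0 and 2 but not in cluster 3. In the pool 3 of 8 measured genes were higher and 5 lower, 2 past the fold, with a median of -0.23. Zeb2, a zinc finger repressor that keeps stellate cells quiescent in mice, had 118 and 215 UMIs with a ratio of 0.59, and Ebf1 22 and 50 UMIs with a ratio of 0.47. In cluster 0, 0 of 5 measured genes were higher and 4 were past the fold downwards, beside 13.8% of all genes there. In cluster 2, 0 of 6 were higher and 4 past it downwards, beside 23.5% of all genes there. In cluster 3, 2 of 2 were higher, and the list sum, which includes the deep cells named above, had a ratio of 1.67 (1.32 to 2.12). The nuclear receptor gene Nr2f2 had 250 and 508 CPM in cluster 0 (ratio 0.49, 0.30 to 0.79). In cluster 2, which has 8 cells with the null mother, Zeb2 had 5 and 61 UMIs, Nr2f2 1 and 30, and Col4a1 7 and 87. Pdgfra, the PDGF receptor gene of fibroblasts, had a pooled ratio of 0.36 (0.20 to 0.62), from 18 and 54 UMIs, and 0.83 with only male cells.

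Cluster 2 differed between the mothers in other ways that its few cells, among them the deep cells of the null mother named above, leave uncertain. Desmin (Des), an intermediate filament gene of contractile and stellate cells, had 71 UMIs with the null mother and 27 with the heterozygous mother there, against 15 and 15 in cluster 0. Glycolysis genes were higher in 7 of 7 measured, all 7 past the fold, beside 23.8% of all genes there. Their median was 0.99, against 0.34 in the pool, where 8 of 9 were higher and 0 past the fold. The mesothelial list summed to 82 and 7 UMIs in cluster 2, and 1 cell of the null mother held 68 of the 82.

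Imprinted growth genes, which restrain or drive fetal growth, were higher in 9 of 11 measured with the null mother, with a median of 0.34. Of the 11, 2 were past the fold, beside 10.8% of all measured genes. Dlk1 was 1.57-fold higher (1.48 to 1.68), and 1.54-fold within cluster 1. Nnat was 1.85-fold higher with 260 and 152 UMIs, the cell cycle inhibitor gene Cdkn1c stood at 1.49-fold and the long noncoding RNA Meg3 at 1.30-fold. By cluster the list median was 0.05 in cluster 0, 0.23 in cluster 1, -0.17 in cluster 2 and 0.83 in cluster 3.

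Division and protein synthesis genes leaned lower with the null mother in the pool, mostly within the fold, but not in every cluster. Of 5 S phase genes 0 were higher and 1 past the fold downwards, with a median of -0.28, and of 8 G2 and M phase genes 2 were higher and 1 past it downwards, with a median of -0.38. Birc5, the 1 past the fold, and Top2a, both of mitosis, had ratios of 0.66 and 0.69. In cluster 3, which carried Mki67, 11 of 11 measured G2 and M phase genes were higher with the null mother, 7 past the fold, beside 15.3% of all genes there. Their list sum had a ratio of 1.62 (1.44 to 1.82). S phase genes went the other way there, with 1 of 4 higher, 2 past the fold downwards and a median of -0.56, beside 29.1% of all genes. Cluster 4, with the neutrophil UMIs, gave 14 UMIs of the G2 and M phase list with the null mother and 217 with the heterozygous mother. Of 23 measured ribosomal protein genes 1 was higher and 0 were past the fold, with a median of -0.18. Their medians were 0.09 in cluster 0, 0.01 in cluster 1, -0.51 in cluster 2 and -0.37 in cluster 3. Genes of the unfolded protein response had 7 of 8 higher and 1 past the fold, a share near the 10.8% of all measured genes. The 1 was the endoplasmic reticulum chaperone gene Hspa5 with 441 and 317 UMIs, 1.5-fold.

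Sterol genes, closest to the enzyme under study, were too few to read gene by gene. None of the 24 genes of cholesterol synthesis and uptake reached 50 UMIs, and together they had 395 UMIs with the null mother and 324 with the heterozygous mother, 744 against 565 CPM, a ratio of 1.32 (1.13 to 1.53). By cluster the ratio was 2.79 (1.9 to 4.19) in cluster 0, from 123 and 35 UMIs, 1.63 (1.29 to 2.05) in cluster 2, 1.04 (0.72 to 1.5) in cluster 1 and 0.94 (0.61 to 1.43) in cluster 3. Hepatocytes use these genes too, and the hepatocyte list was 8.97-fold higher in cluster 0 (7.67 to 10.6). The part of hepatocyte RNA in the sum was not tested. The 10 genes of oxysterol and bile acid enzymes had 37 and 37 UMIs in sum, a ratio of 1.08 (0.67 to 1.75). Of the receptors and targets of LXR, the nuclear receptor for oxysterols, 3 of 14 were measured and 2 were higher with the null mother. The phospholipid transfer protein gene Pltp was the 1 past the fold, at 2.12 from 57 and 29 UMIs.

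**Figure D5:**
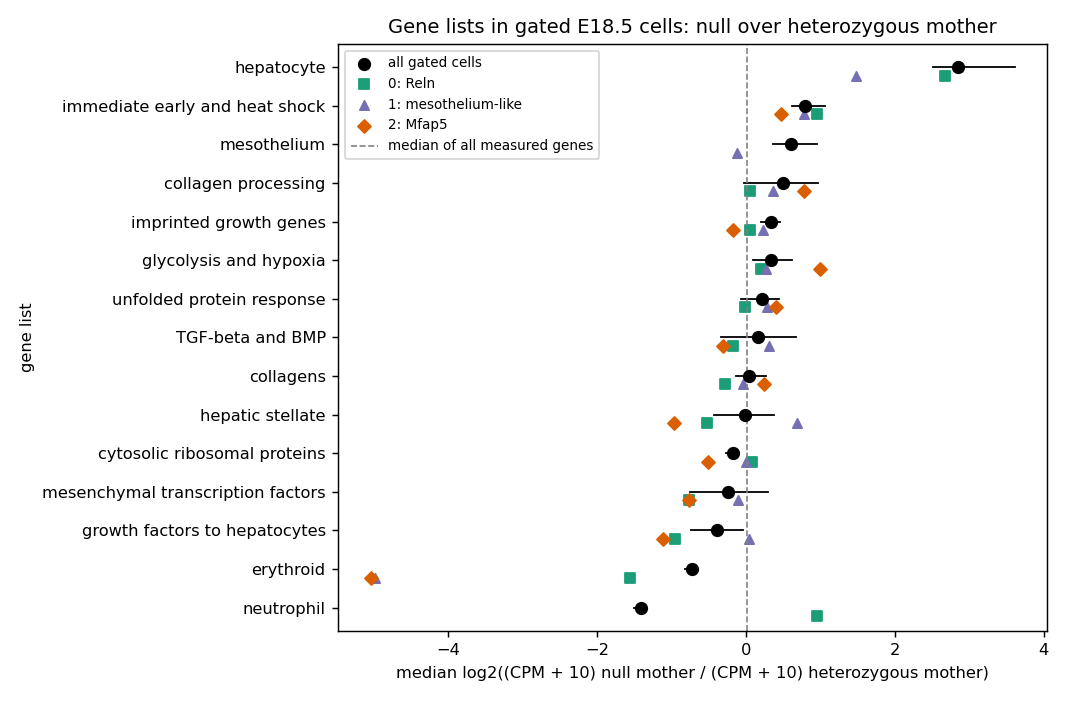
Median log2((CPM + 10) null mother / (CPM + 10) heterozygous mother) over the measured genes of 15 lists, in all gated cells (black, with lines from the median lower to the median upper counting bound) and in clusters 0, 1 and 2 (coloured). Immediate early genes lie above 0 in all cells and in each of the 3 clusters, mesothelial genes at 0.61 in all cells and -0.12 in cluster 1, and the hepatocyte, erythroid and neutrophil lists lie farthest out.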

How the data were processed

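The authors deposited raw UMI counts, 1 matrix of 31053 genes by 43351 cells with no cell types. The submitters' processing notes name Cell Ranger 3.0.0, Seurat 4.3.0 and mm10, with no order or settings. The gene names were read from the file named for barcodes and the reverse, as their contents require. Gene coordinates are from the GENCODE annotation of the same build.

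Cells were gated as described, UMIs summed per library and divided by their total to give CPM, with exact Poisson and conditional binomial 95% intervals, which cover counting error only. Between mothers, a measured gene had at least 50 UMIs in the library of higher CPM (at least 20 within a cluster). Against other cells it had at least 50 UMIs in both libraries. Between ages its higher CPM reached that of 50 UMIs at E18.5 with both mothers. At 50 UMIs the interval runs from 37.1 to 65.9 UMIs. A difference was counted at 1.5-fold between mothers, 2-fold with both mothers between ages and 4-fold against other cells. Log2 ratios used a pseudocount of 10 CPM. Clustering used 1500 variable genes without gate, haemoglobin, mitochondrial, Xist and Y-linked genes, 20 principal components, 15 neighbours and a Leiden resolution of 0.5 (scanpy 1.11.5, leidenalg 0.10.2, Python 3.11.15). A cluster took a cell type name with at least 3 markers of a list in at least 10% of its cells at 2 times the median cluster, unless its top 10 genes went against it.

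Named are the 10 farthest measured genes each way between mothers, the 15 leading genes against other cells, the 8 farthest each way between ages, the 4 farthest of each list, the leading genes of clusters and markers of the lists. Haemoglobin, Xist, Y-linked, mitochondrial and predicted genes were left out. Other genes were named after their values were seen, and the members, the 55 gene lists and these rules were chosen with earlier results of these data known. The counting and ratio steps were tested on simulated data. Doublet calls by Scrublet were tried as an alternative only. Alternatives were another gate threshold, scaling, minimum count, pseudocount or clustering resolution, thinning to 2000 UMIs (1 draw, with 20 draws for its spread), equal cluster weights, means over cells, and leaving out doublets, female cells, the deepest cells or cells with much RNA of other types. A withheld item is not reported here.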

Additional observations from a re-analysis of the deposited data

Results flagged for a closer look

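The median log2 ratio of null over heterozygous mother was set side by side for each list in the gated E18.5 cells and in E14.5 cells of the same gate. A list is given here when the signs were opposite and, at both ages, the median of its genes' counting bounds lay on one side of 0, which 4 lists met. For 7 other lists the signs were opposite but the bounds spanned 0 at 1 or both ages. Each age has 1 library per mother, so these differences were not tested. Mesothelial genes had a median of 0.61 at E18.5 and -0.50 at E14.5. Within the mesothelium-like cluster 1 at E18.5 it was -0.12, and that cluster gave 45.4% and 29.7% of the gated UMIs. At E14.5 the list summed to only 79.5 and 173 CPM, so the added 10 CPM shrank its median. The median counting bounds, taken without the added 10 CPM, were -1.55 and -0.93 there. Growth factors that reach hepatocytes had -0.38 at E18.5 and 0.10 at E14.5, and imprinted growth genes 0.34 at E18.5 and -0.22 at E14.5. Erythroid genes, RNA of other cells, had -0.73 at E18.5 and 2.18 at E14.5.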

How the results depend on the processing

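No paired analysis was possible because each group has 1 library. Alternatives without a test are compared by their values; those with clusters of at least 5 cells at equal weight, clusters without cells rich in other RNA, lists without the gate genes, and the 20 repeats of the thinning, which showed how far its values rest on the draw, were chosen after seeing the data. The share of gated cells was 0.671% with the null mother and 0.908% with the heterozygous mother among male cells, and moved within its interval under the other 4 alternatives. Genes at least 1.5-fold higher and lower with the null mother numbered 19 and 18 of 400 after thinning to 2000 UMIs (18 to 33 and 11 to 27 over 20 draws), 566 and 587 of 4687 with a minimum of 20 UMIs, and 39 and 21 of 385 with a minimum of 200. They numbered 108 and 93 of 1487 without the cells of over 16318 UMIs, and 310 and 379 in cluster 0 alone, which is what equal weights for clusters of at least 20 cells leave. At a 4-fold threshold 109 genes were higher and 22 lower at E18.5 than at E14.5, and after thinning 56 and 30 of 402. Median-of-ratios scaling shifted log2 ratios by -0.02.

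The mesothelial median was 0.21 as a mean over cells and 0 in cluster 0 alone, which lacks those cells. Medians in cluster 0 alone are here over the genes measured in the pool. The hepatocyte median was 1.97 at a gate of 16 UMIs, 1.71 as a mean over cells and 1.32 without cells of over 2% other RNA. The neutrophil median ran from -3.49 without doublets, -2.66 in male cells, -1.0 without the deepest cells and -0.39 as a mean over cells to 0.27 with clusters of at least 5 cells at equal weight and 0.88 in cluster 0 alone. After thinning it was -0.17, and from -1.63 to 1.77 over 20 draws. Immediate early genes stayed above 0 in every alternative run, at 1.13 in male cells, 0.56 with 5-cell clusters at equal weight, 0.54 as a mean over cells, 0.44 in cluster 0 alone and 0.39 without the deepest cells. The collagen median was 0.49 in male cells and -0.31 in cluster 0 alone. Medians that changed sign were growth factors to hepatocytes (0.30, male cells), imprinted growth genes (-0.025), contractile genes (-0.15) and ribosomal proteins (0.085) in cluster 0 alone, and lipid storage (-0.086) and glucocorticoid targets (-0.044) without cells of over 2% other RNA. The cause was not tested.

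Neutrophil gene ratios turned above 1 without cells of over 2% other RNA, in cluster 0 alone and with 5-cell clusters at equal weight, in that order: Elane 1.25, 1.99 and 1.16, Prtn3 1.43, 4.77 and 2.23, Chil3 1.07, 1.59 and 1.13, Camp 1.07, 2.14 and 1.57, Fcnb 1.07, 2.38 and 1.77, and Stfa1 1.35, 1.59 and 1.32. Thinning gave Olfm4 2.33, Stfa1 1.06 and Upk3b 0.937. Ahsg was at 0.783 in male cells, Ptn at 1.58 in male cells and 1.38 in cluster 0 alone, and Des at 0.794 in cluster 0 alone. Of all 636 ratios recomputed over 54 genes, 463 moved less than their counting interval, 148 more and 25 changed direction. Depth limits the rest: at 531136 and 573254 UMIs in sum, no cholesterol synthesis gene and 8 of 34 transcription factors reached 50 UMIs.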

Other observations

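Contractile genes were higher with the null mother in 7 of 8 measured, with a median of 0.28. Of the 8, 2 were past the fold, beside 10.8% of all measured genes. Desmin (Des) had 194 CPM with the null mother and 90.7 CPM with the heterozygous mother, 2.14-fold (1.52 to 3.04), and the actin-binding protein gene Tagln 326 and 201 CPM, 1.62-fold (1.28 to 2.07). Acta2, smooth muscle actin, stood at 346 and 281 CPM, within the fold. Of 8 measured TGF-beta and BMP genes, the matrix gene Tgfbi was past the fold upwards, at 1.99 (1.27 to 3.16), and the co-receptor gene Tgfbr3 downwards, at 0.62 (0.39 to 0.98). The BMP target genes Id3 and Id1 were at 1.48 and 1.45. Of 9 genes of the IGF axis, the binding protein gene Igfbp6 was 1.75-fold higher (1.46 to 2.11), opposite to Igf1, and Igfbp3 and Igfbp7 were at 1.49 and 1.39.

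The simple epithelial keratins that mesothelium shares with epithelium were higher with the null mother, Krt18 with 66 and 23 UMIs (3.10-fold, 1.9 to 5.22) and Krt8 with 54 and 31 UMIs (1.88-fold, 1.19 to 3.03). Within the mesothelium-like cluster 1, which gave 45.4% and 29.7% of the gated UMIs, the epithelium list that holds them had a ratio of 0.96 (0.81 to 1.15) with 0 genes past the fold. The metallothionein gene Mt2 had 77.2 CPM with the null mother and 171 CPM with the heterozygous mother, with 40.8% of its UMIs of the heterozygous mother in 1 cell. Mt1 was at 1.36 (1.15 to 1.61), with 31.8% of its UMIs of the null mother in 1 cell. Of 4 measured angiogenic and vessel factor genes 1 was higher, with a median of -0.08. The semaphorin and VEGF co-receptor gene Nrp1 was at 0.62 (0.39 to 0.97), and Abcc9, a channel subunit gene of mural and stellate cells, at 0.58 (0.37 to 0.91). Of the interferon list 4 genes were measured and 0 were past the fold. None of 12 Notch genes reached 50 UMIs, with 61 and 82 UMIs in sum, and none of 24 Hox genes did, with 91 and 141 UMIs in sum.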
